A study of Mus musculus with 6 samples.

Results

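Transcripts of 8 genes for bicarbonate exchange and carbonic anhydrases were followed in lacrimal gland RNA from AQP5-/- mice and AQP5+/+ mice. The genes were taken by symbol from a table of 22564 protein-coding genes, and all 8 were found: 5 carbonic anhydrases (Car2, Car3, Car6, Car12 and Car13), 2 members of the SLC4 family of bicarbonate transporters (Slc4a2 and Slc4a4) and 1 member of the SLC26 family of anion exchangers (Slc26a6). RNA was sequenced after removal of ribosomal RNA from 3 AQP5-/- libraries and 3 AQP5+/+ libraries, all of C57BL/6 mice aged 6 months. The AQP5-/- mice carry a CRISPR/Cas9 knockout of the water channel aquaporin 5 and were used as a model of primary dry eye. It was made in fertilized eggs and is therefore not limited to the lacrimal gland, and the AQP5+/+ mice were age-matched wild types. The sources used here give neither the sex of the mice nor whether a library is 1 animal, so the p-values measure only the spread between these libraries. Levels are in FPKM, fragments per kilobase of transcript, with the authors' scaling of each library, and gene positions are those of the deposited table on mm10.

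Carbonic anhydrases are zinc enzymes that interconvert carbon dioxide and water with bicarbonate and a proton. In exocrine glands such as the lacrimal, salivary and pancreatic glands, bicarbonate is loaded into the cell across the basolateral membrane or made inside it from carbon dioxide, and leaves through anion exchangers and channels, and water follows the transported ions. A secreted carbonic anhydrase is added to tears and saliva by serous acinar cells.

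Of the 8 genes, the transcript of Car6, the secreted isoenzyme, was far more abundant than the other 7, and Slc4a4, the sodium bicarbonate cotransporter, was the only gene of the set whose unadjusted p was under 0.05. Promoter sequence is shown for 3 of the genes: Car6 because it set the level of the whole family, Slc4a4 because of that difference and because its messenger RNAs arise from more than 1 start, and Car12 as the second most abundant of the carbonic anhydrases. Each line is the 250 bases before an annotated transcription start, read 5′ to 3′ on the strand of the gene, from RefSeq on GRCm38.p6, with capitals for every CG dinucleotide.
Car6, chr4:150201136-150201385, minus strand: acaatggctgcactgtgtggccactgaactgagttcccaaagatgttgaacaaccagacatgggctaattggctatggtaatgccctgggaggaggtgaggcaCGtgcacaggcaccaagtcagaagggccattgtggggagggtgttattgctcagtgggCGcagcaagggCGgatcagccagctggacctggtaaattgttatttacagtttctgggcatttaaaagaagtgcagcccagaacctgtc
Slc4a4, upstream start, chr5:88887010-88887259, plus strand: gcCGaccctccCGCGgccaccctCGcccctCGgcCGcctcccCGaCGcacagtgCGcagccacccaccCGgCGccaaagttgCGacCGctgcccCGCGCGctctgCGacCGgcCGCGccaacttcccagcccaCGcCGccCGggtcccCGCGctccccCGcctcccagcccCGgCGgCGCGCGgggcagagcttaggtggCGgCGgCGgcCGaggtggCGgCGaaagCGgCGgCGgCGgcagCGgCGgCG
Slc4a4, internal start, chr5:89027716-89027965, plus strand: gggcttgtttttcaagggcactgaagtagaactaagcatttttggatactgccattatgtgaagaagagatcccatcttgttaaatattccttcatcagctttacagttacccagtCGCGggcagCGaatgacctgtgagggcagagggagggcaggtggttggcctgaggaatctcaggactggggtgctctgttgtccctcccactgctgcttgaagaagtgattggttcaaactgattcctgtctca
Car12, chr9:66713436-66713685, plus strand: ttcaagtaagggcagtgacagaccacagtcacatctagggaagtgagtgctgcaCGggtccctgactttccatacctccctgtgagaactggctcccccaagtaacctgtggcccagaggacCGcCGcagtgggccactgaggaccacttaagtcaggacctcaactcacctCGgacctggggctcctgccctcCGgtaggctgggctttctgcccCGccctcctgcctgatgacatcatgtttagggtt

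The Car6 promoter held 3 CG dinucleotides and the Car12 promoter 6, against a median of 6 over 32851 RefSeq promoter windows of the same length. Of the 2 Slc4a4 starts printed, the upstream start lay in sequence of 82.0% G and C with 44 CG dinucleotides, while the internal start had 3. The RefSeq genes of Slc4a4 and Car12 begin further upstream, at chr5:88793858 and chr9:66712296, and no window is shown for those positions. The deposited locus of Car6 reaches chr4:150201332, so most of its printed window lies inside that locus. Both strands were searched for the TATA motif TATAAA and its variant TTTAAA, for the hormone receptor core AGAACA, for the E-box CAGCTG and for the CCAAT box. The Car6 promoter held TTTAAA with its first base 29 bases before the start, written at -29, CAGCTG at -69 and CCAAT on the opposite strand at -183, and these matches did not overlap. The same letters stood in 12.1%, 13.0% and 33.8% of all windows, in that order of motifs. Of the other windows printed, the internal start of Slc4a4 held CCAAT on the opposite strand at -26, and the upstream start and the Car12 promoter held none of the 5 motifs. Windows were found for 5 of the 8 genes. The table holds 1 value per gene, so transcripts from different starts of Slc4a4 were not separated.

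The libraries held 11244579 to 13723134 estimated fragments in protein-coding genes. The authors' scaling did not follow these totals: AQP5+/+ replicates 1 and 3 held 11293172 and 11244579, with scaling factors of 0.916 and 1.19. Aqp5 was at 0.378, 0.177 and 0.170 FPKM in the AQP5-/- libraries, against 154, 89.0 and 142 FPKM in the AQP5+/+ libraries, as labelled. The tissue label was checked with 10 acinar cell markers, which summed to 627 to 812 FPKM in AQP5-/- libraries and 751 to 1359 FPKM in AQP5+/+ libraries, and with 8 duct cell markers, which summed to 301 to 355 FPKM and 299 to 399 FPKM in the same groups. A pair of libraries stood apart: 10 salivary gland markers summed to 19364 FPKM in AQP5-/- replicate 1 and 1749 FPKM in AQP5+/+ replicate 2, against 9.05 to 27.7 FPKM in the other 4 libraries. They were led by Bpifa2, Smr3a and Amy1, while the mucous cell genes Muc19 and Smgc were at 0 in all 6 libraries. AQP5+/+ replicate 2 also held skeletal muscle transcripts, with 123 FPKM summed over 16 markers against 5.97 to 14.1 FPKM in the other 5. Transcripts of 4 Y-linked genes summed to 49.7, 58.0 and 52.1 FPKM in AQP5-/- libraries, against 0.320, 33.0 and 0.185 FPKM in AQP5+/+ replicates 1, 2 and 3. Genotype thus coincided with Y-linked transcripts in 5 of 6 libraries, and only AQP5+/+ replicate 2 can tell them apart. That library correlated at 0.953 to 0.961 with the AQP5-/- libraries and at 0.913 to 0.917 with the other AQP5+/+ libraries, over log2 values of the tested genes. Results below are therefore also given without AQP5-/- replicate 1 and AQP5+/+ replicate 2, and with a term for Y-linked transcripts in the fit. Both were chosen with earlier results known. With that term the genotype estimate sets the AQP5-/- libraries against AQP5+/+ replicate 2 alone, the only AQP5+/+ library with Y-linked transcripts. That library also held the high salivary gland and skeletal muscle markers, and a call lost with the term rests on it. In every fit without AQP5+/+ replicate 2, genotype coincided with Y-linked transcripts in all libraries kept, and their effects cannot be told apart.

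**Figure D1:**
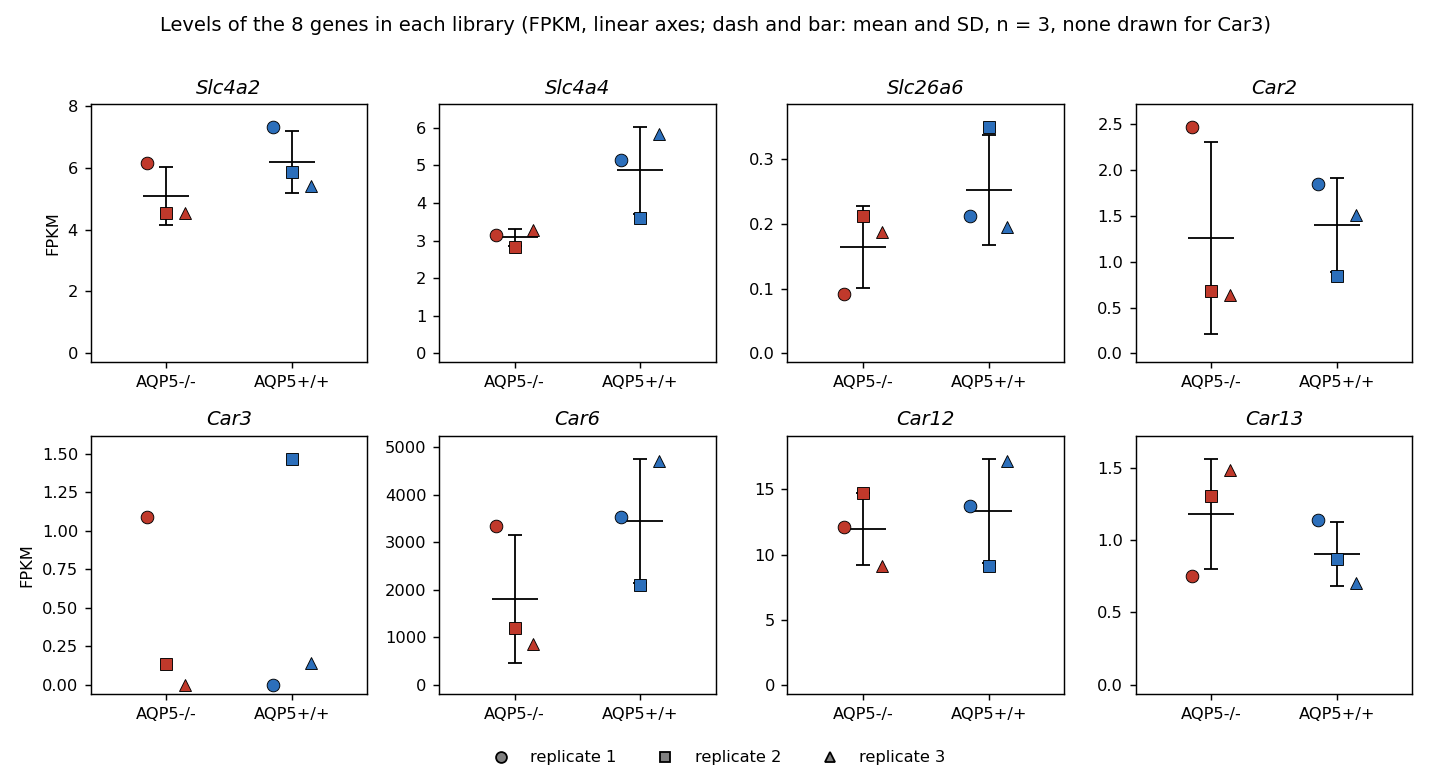
Levels in FPKM of the 8 genes in each library, with AQP5-/- on the left and AQP5+/+ on the right of every panel, points for libraries, and a dash with a bar for the mean and SD of 3 libraries, which were not drawn for Car3 because 2 of its libraries were at 0. The 3 AQP5-/- points of Slc4a4 lie below all 3 AQP5+/+ points, and the groups overlap in the other 7 panels.

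Car6 (ENSMUSG00000028972, chr4:150187015-150201332, minus strand) encodes carbonic anhydrase VI, the isoenzyme secreted into saliva and tears. Its transcript ranked 23 among 22564 genes by mean FPKM and made up 98.0% to 99.5% of the summed FPKM of 16 carbonic anhydrase genes in every library. Car6 was at 3347, 1197 and 858 FPKM in AQP5-/- libraries, against 3532, 2101 and 4719 FPKM in AQP5+/+ libraries. Before scaling, AQP5+/+ replicates 1 and 3 held 103058 and 104658 estimated fragments of Car6, nearer to each other than their FPKM. The groups overlapped: AQP5-/- replicate 1 stood at 3.26 times the mean of the other AQP5-/- libraries and above AQP5+/+ replicate 2, the lowest of its group. The means were 1801 ± 1350 FPKM in AQP5-/- libraries and 3451 ± 1311 FPKM in AQP5+/+ libraries (SD, n = 3 each). On log2(FPKM + 0.5) the log2 fold change of AQP5-/- over AQP5+/+ was -1.12 (SE 0.557, 95% confidence interval -2.40 to 0.17), with a limma adjusted p = 0.444 (Benjamini-Hochberg over 11772 genes). The unadjusted p was above 0.05 too, so with 3 libraries a group the estimate could not be told from 0.

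The Car6 estimate turned on which libraries were kept. Without AQP5-/- replicate 1 the log2 fold change was -1.69, and without AQP5+/+ replicate 2 it was -1.44, both with an unadjusted limma p under 0.05. Without both of them, the libraries with high salivary gland markers, it was -2.01 (SE 0.356, limma adjusted p = 0.0414). That fit kept 2 libraries a group, and 488 of 11772 genes had an adjusted p under 0.05 in it. For Car6, AQP5-/- replicate 1 was the highest of its group and AQP5+/+ replicate 2 the lowest. Leaving out either could therefore only enlarge the difference. In both fits without AQP5+/+ replicate 2, genotype coincided fully with Y-linked transcripts. With the term for Y-linked transcripts the Car6 estimate was -0.48 (SE 0.695, adjusted p = 0.9996). The 4 libraries with Y-linked transcripts were all below the 2 without them for Car6, and this also held for 35.6% of all genes tested. Salivary glands also express Car6, and the part of the salivary transcripts in the level of AQP5-/- replicate 1 was not tested. As these are whole glands, fewer cells of a type and less RNA per cell cannot be told apart.

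**Figure D2:**
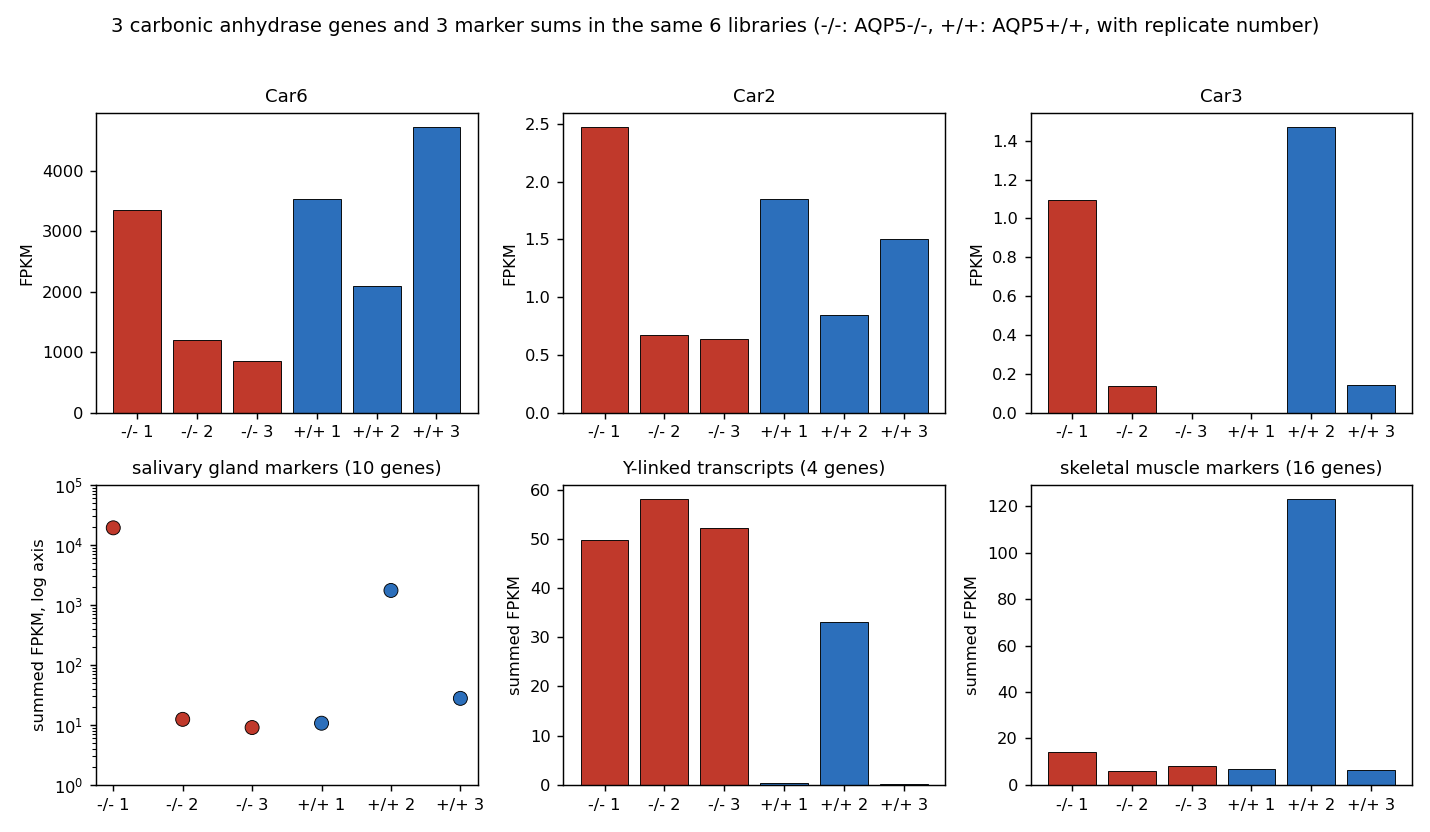
FPKM of Car6, Car2 and Car3 (top row, bars from 0) and summed FPKM of salivary gland markers (log axis), Y-linked transcripts and skeletal muscle markers (bottom row) in the same 6 libraries, AQP5-/- in red on the left and AQP5+/+ in blue on the right. AQP5-/- replicate 1 is the highest of its group in Car6, Car2, Car3 and the salivary sum, and AQP5+/+ replicate 2 is the lowest of its group in Car6 and Car2 and the highest in Car3 and in all 3 marker sums.

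Car12 (ENSMUSG00000032373, chr9:66713686-66766845, plus strand), carbonic anhydrase XII, is a membrane enzyme with its active site outside the cell. It was at 12.1, 14.7 and 9.15 FPKM in AQP5-/- libraries, against 13.8, 9.16 and 17.2 FPKM in AQP5+/+ libraries. The lowest library of each group reached nearly the same level, and the ranges overlapped over most of their length. Car12 had a log2 fold change of -0.13 (SE 0.255, 95% confidence interval -0.72 to 0.46, limma adjusted p = 0.829). Its sign changed with the scaling and was 0.0051 after each library was centred on its median, 0.032 in edgeR and 0.035 in DESeq2. The interval spans both a lower and a higher level, and no direction can be given. With Car6 left out, Car12 held 45.8% to 71.1% of the summed FPKM of the other carbonic anhydrases, followed by Car5b, a mitochondrial isoenzyme, with 13.4% to 34.2%. That remaining sum was 17.5 to 23.8 FPKM in AQP5-/- libraries and 20.0 to 24.1 FPKM in AQP5+/+ libraries.

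Car2, Car3 and Car13 encode cytosolic isoenzymes and lie with Car1 in 1 cluster of 259044 bases on chromosome 3 of GRCm38.p6, in the order Car13, Car1, Car3 and Car2. Car2 (ENSMUSG00000027562, chr3:14886426-14900769, plus strand), carbonic anhydrase II, a fast isoenzyme that works beside bicarbonate transporters in many secretory epithelia, was at 2.47, 0.675 and 0.635 FPKM in AQP5-/- libraries, against 1.85, 0.847 and 1.51 FPKM in AQP5+/+ libraries. As with Car6, AQP5-/- replicate 1 was the highest of its group, 3.77 times the mean of the other AQP5-/- libraries, and AQP5+/+ replicate 2 the lowest of its group. Its log2 fold change was -0.23 (SE 0.414, 95% confidence interval -1.19 to 0.73, limma adjusted p = 0.814), against 0.046 in edgeR and 0.053 in DESeq2. Without AQP5-/- replicate 1 and AQP5+/+ replicate 2 it was -0.91 (SE 0.235, limma adjusted p = 0.0961), with an unadjusted p under 0.05. Leaving these libraries out could only lower the estimate. With the term for Y-linked transcripts it was 0.23 (SE 0.557). Erythroid cells also carry Car2. Summed erythroid markers were 55.2 to 147 FPKM in AQP5-/- libraries and 31.9 to 92.1 FPKM in AQP5+/+ libraries, led by globin genes, while Car1, the other red cell isoenzyme, was listed at 0 in all 6. The part of red cells in Car2 was not tested.

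Car13 (ENSMUSG00000027555, chr3:14641727-14663002, plus strand), carbonic anhydrase XIII, was the only tested gene of the set with a positive estimate. It was at 0.752, 1.31 and 1.48 FPKM in AQP5-/- libraries, against 1.14, 0.871 and 0.702 FPKM in AQP5+/+ libraries. AQP5-/- replicates 2 and 3 were above every AQP5+/+ library, and AQP5-/- replicate 1 lay inside the AQP5+/+ range. It had a log2 fold change of 0.24 (SE 0.262, 95% confidence interval -0.36 to 0.85, limma adjusted p = 0.676), and the interval includes 0. Its sign was positive in all 19 alternatives, none of which reached an unadjusted p under 0.05, while its size varied between 0.11 without AQP5-/- replicate 3 and 0.44 without AQP5-/- replicate 1, and was 0.50 in edgeR and 0.51 in DESeq2. The values rest on 24 to 68 estimated fragments per library.

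Car3 (ENSMUSG00000027559, chr3:14863538-14872351, plus strand), carbonic anhydrase III, is abundant in skeletal muscle and fat. It was at 1.09, 0.137 and 0 FPKM in AQP5-/- libraries, from 28, 3 and 0 estimated fragments, against 0, 1.47 and 0.141 FPKM in AQP5+/+ libraries, from 0, 40 and 3 fragments. Only AQP5-/- replicate 1 and AQP5+/+ replicate 2 held more than 3 fragments, the same libraries that had high salivary gland markers. Skeletal muscle markers were high in AQP5+/+ replicate 2, at 123 FPKM against 14.1 FPKM in AQP5-/- replicate 1, and summed adipocyte markers were 10.1, 3.95 and 4.19 FPKM in AQP5-/- libraries against 4.97, 4.79 and 9.74 FPKM in AQP5+/+ libraries. The part of these tissues in Car3 was not tested. The mean FPKM of Car3 was under the minimum of 0.5 for the test. In a fit without that minimum its log2 fold change was -0.11 (SE 0.642, adjusted p = 0.955), which rests on those 2 libraries.

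Slc4a4 (ENSMUSG00000060961, chr5:88886818-89239653, plus strand) encodes the electrogenic sodium bicarbonate cotransporter NBCe1, which brings bicarbonate into secretory epithelial cells across the basolateral membrane. It was at 3.15, 2.83 and 3.28 FPKM in AQP5-/- libraries, against 5.16, 3.60 and 5.85 FPKM in AQP5+/+ libraries. All AQP5-/- libraries were below all AQP5+/+ libraries, as for 11.1% of all genes tested, and AQP5+/+ replicate 2 was the nearest to the AQP5-/- range. The means were 3.09 ± 0.232 FPKM in AQP5-/- libraries and 4.87 ± 1.15 FPKM in AQP5+/+ libraries (SD, n = 3 each). Slc4a4 had a log2 fold change of -0.56, or 1.47-fold lower in AQP5-/- (SE 0.204, 95% confidence interval -1.03 to -0.09, limma adjusted p = 0.431). Its unadjusted p was under 0.05, as for 8.12% of all genes in the same direction. It stayed under the 2-fold change that the study required, and the adjusted p did not pass.

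The Slc4a4 estimate was negative in all 19 alternatives and had an unadjusted p under 0.05 in 14 of them. It was -0.39 in edgeR on estimated fragments, where 7.28% of all genes were lower with an unadjusted p under 0.05, and -0.42 after median centring. Without AQP5+/+ replicate 2 it was -0.74 (limma adjusted p = 0.0437), and without AQP5-/- replicate 1 as well it was -0.76 (SE 0.186, adjusted p = 0.0895). In these fits 917 and 488 of 11772 genes had an adjusted p under 0.05, and genotype coincided fully with Y-linked transcripts. The Slc4a4 call at an unadjusted p under 0.05 was lost with the term for Y-linked transcripts, where the estimate was -0.19 (SE 0.210). It was also lost without AQP5-/- replicate 1, AQP5-/- replicate 2, AQP5+/+ replicate 1 or AQP5+/+ replicate 3, where the estimates were -0.57, -0.51, -0.51 and -0.43 in that order. In the deposited scaled counts the groups overlapped: 371, 416 and 466 in AQP5-/- libraries, against 656, 464 and 704 in AQP5+/+ libraries. They also overlapped in estimated fragments: 376, 360 and 525 in AQP5-/- libraries, against 716, 495 and 591 in AQP5+/+ libraries. The ratio of scaled counts to FPKM of Slc4a4 ran between 118 and 147, so the separation of the groups depended on the unit. The summed acinar cell markers were also highest in AQP5+/+ replicates 1 and 3, the 2 libraries highest in Slc4a4. Of these markers, Xbp1, Ano1, Chrm3, Runx1 and Rab3d were higher in both of these libraries than in any other library. Rab27a and Fgf10 were lower in both, and Bhlha15, Slc12a2 and Pigr did neither. The part of acinar cells in the difference was not tested.

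Slc4a2 (ENSMUSG00000028962, chr5:24423837-24445287, plus strand) encodes AE2, an exchanger of chloride for bicarbonate in the basolateral membrane of many epithelia. It was at 6.15, 4.55 and 4.52 FPKM in AQP5-/- libraries, against 7.31, 5.86 and 5.41 FPKM in AQP5+/+ libraries. AQP5-/- replicate 1 stood above AQP5+/+ replicates 2 and 3, and the other AQP5-/- libraries were below the whole AQP5+/+ group. The estimate of its log2 fold change was -0.27 (SE 0.188, 95% confidence interval -0.70 to 0.17, limma adjusted p = 0.536). It was negative in all 19 alternatives, none of which reached an unadjusted p under 0.05. The deposited scaled counts of Slc4a2 were 146, 223 and 169 in AQP5-/- libraries, against 262, 197 and 262 in AQP5+/+ libraries, and their ratio to the FPKM ran between 23.8 and 49.1. For Car6 the same ratio stayed between 26.4 and 26.7, so the order of the libraries for Slc4a2, but not for Car6, depended on the unit. In estimated fragments Slc4a2 was at 148, 193 and 190 in AQP5-/- libraries, against 286, 210 and 220 in AQP5+/+ libraries, without overlap. The share of all genes without overlap in that unit is not given here, so this cannot be read against it. The deposited locus of Slc4a2 overlaps Fastk, another protein-coding gene of RefSeq, and extends past the RefSeq end of Slc4a2 at chr5:24440947. Overlap between the RefSeq positions of Slc4a2 and Fastk was not examined. The sources used here do not say if the mRNA values were counted by strand, so reads of these 2 genes may be shared.

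Slc26a6 (ENSMUSG00000023259, chr9:108854037-108912558, plus strand) encodes an apical exchanger of chloride for bicarbonate, oxalate and other anions. It was at 0.0924, 0.212 and 0.187 FPKM in AQP5-/- libraries, against 0.213, 0.349 and 0.195 FPKM in AQP5+/+ libraries. Every value came from few fragments, 4 to 9 in AQP5-/- libraries and 7 to 16 in AQP5+/+ libraries, and the groups overlapped. Its mean was under the minimum for the test. In the fit without the minimum the log2 fold change was -0.18 (SE 0.119, adjusted p = 0.588), and a difference was not detectable at this depth.

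**Figure D3:**
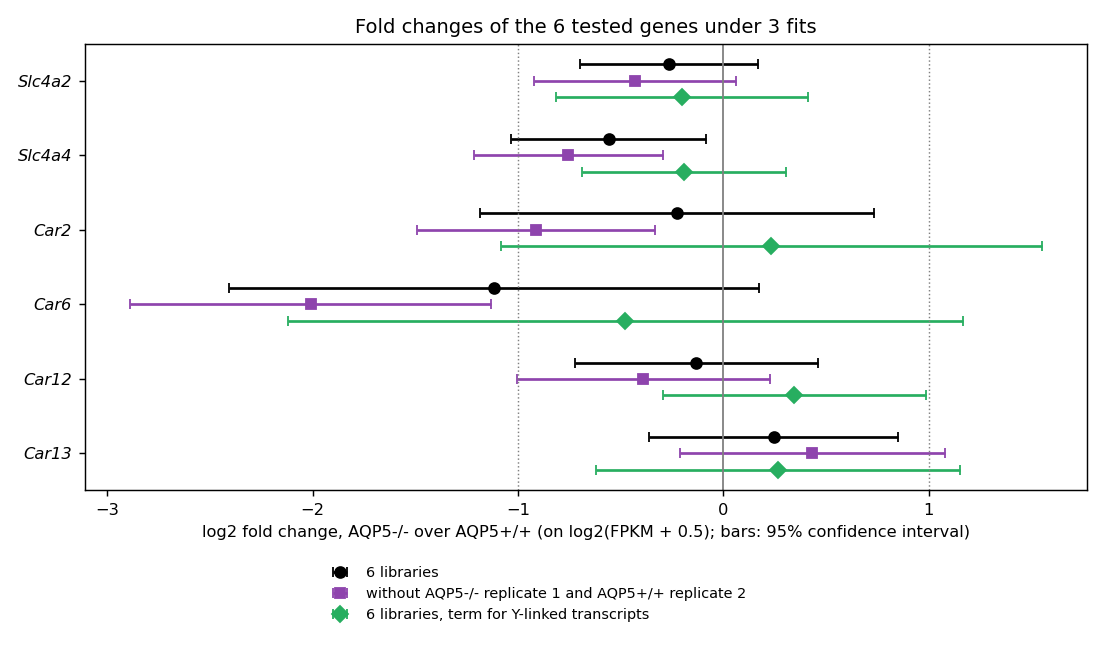
Log2 fold changes, AQP5-/- over AQP5+/+, of the 6 tested genes with 95% confidence intervals, in the fit of 6 libraries (black), without AQP5-/- replicate 1 and AQP5+/+ replicate 2 (purple) and with a term for Y-linked transcripts (green); dotted lines mark a 2-fold change. The Car6 estimate moves between -2.01 and -0.48, and the intervals of Car12, Car13 and Slc4a2 include 0 in all 3 fits.

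By count, 6 of the 8 genes reached the minimum level for the test. Of these, 0 passed the study's threshold of a 2-fold change with an unadjusted p under 0.05, which 2.04% of all genes tested passed. Without the fold condition 1 of 6 passed, Slc4a4, against 11.4% of all genes, and 0 had an adjusted p under 0.05 in limma, edgeR and DESeq2, against 0.017% of all genes in limma, 0.017% in edgeR and 1.27% in DESeq2. The count at the study's threshold was also 0 in edgeR, where 2.59% of all genes passed, and in DESeq2, where 2.88% passed. With p under 0.05 alone the count was also 1 in both tools, against 12.4% of all genes in edgeR and 12.6% in DESeq2. The median log2 fold change of the 6 genes was -0.25 with 5 of 6 below 0, beside a median of -0.12 over all genes with 7883 of 11772 below 0. Median centring moved that median to 0.01. Without AQP5-/- replicate 1 and AQP5+/+ replicate 2, 1 of 6 passed the study's threshold, Car6, against 6.18% of all genes, and 3 of 6 had p under 0.05 (Car2, Car6 and Slc4a4), against 24.4%. With the term for Y-linked transcripts 0 of 6 had p under 0.05, against 2.96%.

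The levels of some of these genes moved together over the 6 libraries. Pearson's correlation of log2(FPKM + 0.5) was 0.85 between Car6 and Car2, 0.77 between Slc4a2 and Car2, 0.75 between Slc4a2 and Car6, 0.73 between Car6 and Slc4a4 and -0.84 between Car6 and Car13, and the other pairs lay between -0.66 and 0.56, over 6 libraries that include both genotypes and share their scaling. Among 6259 genes with a mean of at least 5 FPKM, the patterns most like Car6 were those of Cadps2, Dtnb and Pgam1 (0.99, 0.98 and 0.98). Those most like Slc4a4 were Gps1, Rb1cc1 and Ado (0.99 each), and those most like Car12 were Prkag1, Sp1 and Cdc16 (0.998, 0.99 and 0.98). Car3 was most like Dnaja4, Chia and Bpifa2 (0.97, 0.95 and 0.94), and Bpifa2 is among the salivary gland markers. For Car2 they were Zfp462, Jun and Rbm3, and Jun, an immediate early gene, was at 82.7, 19.3 and 14.7 FPKM in AQP5-/- libraries against 40.9, 18.7 and 48.7 FPKM in AQP5+/+ libraries. For Car13 they were Sparc, Actr2 and Lypla1, for Slc4a2 Timmdc1, Nt5c2 and Fance, and for Slc26a6 Eif5, Rap1gds1 and Gm561. With 6 points these are descriptions only.

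The rest of the pathway was described with 6 lists of 66 further genes, of which 25 were tested and 13 were listed at 0 in all libraries. In all, 1 of 25 passed the study's threshold as higher and 0 as lower in AQP5-/- libraries, against 1.16% and 0.883% of all genes. With p under 0.05 alone, 2 were higher and 4 lower, against 3.27% and 8.12%. The median log2 fold change was -0.08, with 17 of 25 below 0. The count past the study's threshold was 5 without AQP5+/+ replicate 2, where 5.58% of all genes passed, and 4 when AQP5-/- replicate 1 was left out as well, where 6.18% passed.

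Slc16a1 encodes MCT1, a carrier of lactate together with a proton, and was the gene that passed. It was at 3.31, 3.52 and 3.56 FPKM in AQP5-/- libraries, against 1.24, 2.43 and 0.610 FPKM in AQP5+/+ libraries, with no overlap, as for 3.86% of all genes in this direction. The log2 fold change was 1.15 (SE 0.336, limma adjusted p = 0.431). With the term for Y-linked transcripts it was 0.44, with an unadjusted p above 0.05. With a pseudocount of 1 (0.95) or without AQP5+/+ replicate 3 (0.81) the estimate no longer reached a 2-fold change. The carbonic anhydrase list held 1 further tested gene, Car5b, at 6.66, 5.97 and 5.99 FPKM in AQP5-/- libraries against 3.99, 6.54 and 3.24 FPKM in AQP5+/+ libraries (log2 fold change 0.45, SE 0.240, adjusted p = 0.458). In that list and in the SLC26 family 0 tested genes had p under 0.05, and in the SLC4 family Slc4a4 was the only gene that had. Slc4a7, a sodium bicarbonate cotransporter, had a log2 fold change of -0.01 and Slc4a3, an anion exchanger, -0.32 (SE 0.219 and 0.352). Slc26a2, a sulfate transporter, had 0.05 and Slc26a11 0.15 (SE 0.141 and 0.217).

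Among 5 tested sodium-proton exchangers, which export protons in exchange for sodium, all estimates were below 0 and 1 had p under 0.05, against the 8.12% of all genes that were lower by this measure. This was Slc9a7, an exchanger of the Golgi apparatus, at 7.98, 8.19 and 6.69 FPKM in AQP5-/- libraries against 18.1, 8.77 and 14.2 FPKM in AQP5+/+ libraries (log2 fold change -0.75, SE 0.251, limma adjusted p = 0.431). Slc9a8 followed with -0.21 (SE 0.166). Among 9 tested regulators, 2 had p under 0.05, both lower in AQP5-/-, against the same 8.12%. Ahcyl2, a relative of the protein IRBIT that binds NBCe1, was at 4.28, 5.44 and 4.49 FPKM in AQP5-/- libraries against 8.80, 6.15 and 9.23 FPKM in AQP5+/+ libraries (log2 fold change -0.70, SE 0.194, limma adjusted p = 0.431). Slc9a3r2, a scaffold protein of the apical membrane, was at 8.74, 8.30 and 8.81 FPKM in AQP5-/- libraries against 22.5, 10.3 and 16.0 FPKM in AQP5+/+ libraries, with a log2 fold change of -0.81 (SE 0.256, limma adjusted p = 0.431). In Slc9a7, Ahcyl2 and Slc9a3r2, as in Slc4a4, AQP5+/+ replicate 2 was the AQP5+/+ library nearest to the AQP5-/- range, and with the term for Y-linked transcripts the estimates of these 3 genes were -0.20, -0.35 and -0.24 in that order, none with an unadjusted p under 0.05. The Slc9a7 call was also lost when any 1 of AQP5-/- replicate 3 (-0.67), AQP5+/+ replicate 1 (-0.53) and AQP5+/+ replicate 3 (-0.70) was left out.

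A further 3 genes are named after their values were seen. The proton channel Hvcn1 (log2 fold change 0.998, SE 0.359) and the monocarboxylate carrier Slc16a7 (-0.59, SE 0.235) complete the genes with an unadjusted p under 0.05, each with a limma adjusted p = 0.431. With the term for Y-linked transcripts both calls were lost, at 0.66 for Hvcn1 and -0.08 for Slc16a7. The Hvcn1 call was also lost when AQP5-/- replicate 1 (0.73), AQP5-/- replicate 2 (0.89) or AQP5+/+ replicate 1 (0.77) was left out, and when AQP5-/- replicate 1 and AQP5+/+ replicate 2 both were (0.90). The Slc16a7 call was also lost with median centring (-0.46), with quantile normalization (-0.45) and when either of AQP5-/- replicates 2 and 3 or of AQP5+/+ replicates 1 and 3 was left out (-0.56 to -0.41). Hvcn1 is also expressed in leukocytes, whose markers summed to 96.6, 150 and 196 FPKM in AQP5-/- libraries against 47.1, 66.9 and 93.3 FPKM in AQP5+/+ libraries, and their part in Hvcn1 was not tested. Chp1, a cofactor of sodium-proton exchangers, was at 17.3, 20.2 and 21.6 FPKM in AQP5-/- libraries, against 57.7, 16.5 and 63.2 FPKM in AQP5+/+ libraries. AQP5+/+ replicate 2 was below every AQP5-/- library, and the log2 fold change was -0.98 (SE 0.459, limma adjusted p = 0.436), and 0.25 with the term for Y-linked transcripts. Without AQP5+/+ replicate 2 it was -1.60, and without AQP5-/- replicate 1 as well -1.51, both with an unadjusted p under 0.05. The unadjusted p was also under 0.05 in edgeR, in DESeq2, with library weights and with a replicate block, and above it in the other alternatives.

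**Figure D4:**
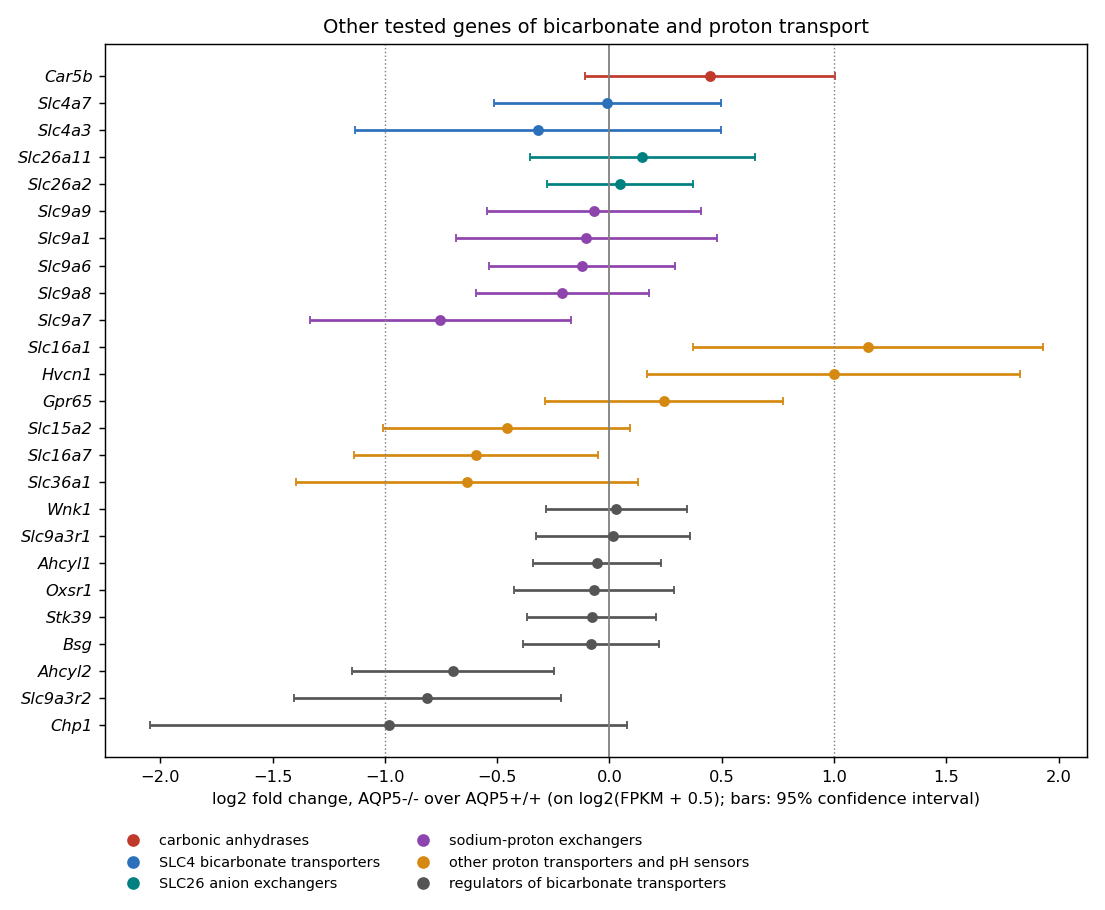
Log2 fold changes, AQP5-/- over AQP5+/+, of the 25 other tested genes of bicarbonate and proton transport with 95% confidence intervals, coloured by list; dotted lines mark a 2-fold change. Slc16a1 at 1.15 is the only estimate past a 2-fold change with an interval clear of 0, and 17 of 25 estimates lie below 0.

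Circular RNAs, which are joined end to start by back-splicing, were counted by junction reads in the same libraries. Of 2541 circRNAs, 3 came from the 8 genes, and all 3 were from Car6 on chromosome 4, catalogued as sense overlapping and not matched to an earlier list. They were chr4:150187180-150187494, chr4:150187180-150192622 and chr4:150187208-150189200 (mm10). Each had 2 reads in a single library: the first 2 in AQP5-/- replicate 1 and the last in AQP5-/- replicate 2. In all there were 6 reads in AQP5-/- libraries and 0 in AQP5+/+ libraries. Reads in a single library were the rule in the table, for 1603 of 2541 circRNAs, and none of the 3 was tested. No difference in Car6 circular RNA was detectable at this depth.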

How the data were processed

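RNA of 6 lacrimal gland libraries was analysed, grouped by the genotype in the labels. The authors deposited FPKM values and estimated counts per protein-coding gene on mm10. Their processing notes list Cufflinks, Cuffdiff 2.2.1 and HISAT2 2.0.4, in no stated order. The estimated counts carry 1 scaling factor per library and were divided by it and rounded to give estimated fragments, of which 88.5% to 90.2% of values were within 0.01 of a whole number. The scaled counts of Car6 were 26.4 to 26.7 times its FPKM in every library, so the FPKM carry the same factor. The circRNA counts are raw junction reads made by the authors with cutadapt 1.9.3, STAR 2.5.1b and DCC, which calls the back-splice junctions, and 6 further columns with values normalized by edgeR 3.16.5 were not used. The 8 genes and the gene lists were chosen with earlier results of these data known.

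FPKM were compared with limma 3.58.1 (lmFit, eBayes with trend, R 4.3.3) on log2(FPKM + 0.5) for the 11772 genes that averaged 0.5 FPKM or more. The pseudocount understates changes of low genes. The fold and unadjusted p thresholds, 2 and 0.05, follow the study's methods. Alternatives were edgeR 4.0.16 (quasi-likelihood) and DESeq2 1.42.0 on estimated fragments, other pseudocounts, filters and scalings, library weights, a replicate block, a term for Y-linked transcripts and leaving out libraries. Beyond the 8 genes, the text names in each list every gene past the threshold, or otherwise up to 2 of smallest p, and for each of the 8 genes the 3 most correlated genes. FPKM of genes with several isoforms depend on how fragments were divided between them.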

Additional observations from a re-analysis of the deposited data

How the results depend on the processing

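Of the 240 genes past the study's threshold in limma, the count was 554 with library weights, 104 with the term for Y-linked transcripts, 728 without AQP5-/- replicate 1 and AQP5+/+ replicate 2 (an alternative chosen after seeing the data), and 81 to 657 when 1 library was left out, the extremes being without AQP5+/+ replicate 1 and without AQP5+/+ replicate 2. Genes with an adjusted p under 0.05 numbered 2, against 516, 10 and 488 in the same 3 alternatives, 149 in DESeq2 and 2 to 917 with 1 library left out. Of calls at the study's threshold 56.7% were higher in AQP5-/-, against 74.8% after median centring, where the median of all genes was 0.01 in place of -0.12, and 45.8% with library weights. Among the 8 genes the number past that threshold was 0, where 240 of all genes passed. It was 1 (Car6) with quantile normalization, with library weights and without both libraries, where 206, 554 and 728 of all genes passed. With 1 library left out it was 0 to 1, where 81 to 657 passed. The number with p under 0.05 was 1, against 11.4% of all genes. It was 0 with the term for Y-linked transcripts, against 2.96%, and 3 without both libraries, against 24.4%. It was 2 with quantile normalization, 2 with library weights and 0 to 2 with 1 library left out. For these the share of all genes is not given here, so the counts cannot be read against it. Car6 was at -2.16 with quantile normalization and -1.56 with library weights, against -0.74 in edgeR and in DESeq2. Car2 changed sign to 0.046 in edgeR, 0.053 in DESeq2 and 0.23 with the term for Y-linked transcripts, and ran between -0.68 and 0.012 with 1 library left out, the upper end being without AQP5-/- replicate 3. Car12 changed sign to 0.0051 with median centring, 0.032 in edgeR, 0.035 in DESeq2 and 0.34 with the term for Y-linked transcripts, and ran between -0.37 and 0.064 with 1 library left out, above 0 without AQP5-/- replicate 3 or AQP5+/+ replicate 3. With that term Chp1 changed sign to 0.25 and Car5b to -0.071. Of the 25 other pathway genes 1 passed the study's threshold, as did 240 of all genes. The count was 2 with a pseudocount of 0.1, median centring, quantile normalization or library weights, where 347, 230, 206 and 554 of all genes passed. It was 3 in edgeR and 3 in DESeq2 (305 and 337 of all genes). It was 0 with a pseudocount of 1 (172) and with the term for Y-linked transcripts (104). Without both libraries it was 4 (728), and with 1 library left out 1 to 5 (81 to 657). The cause was not tested. Slc4a2 and Car13 kept their sign and their side of the unadjusted 0.05 threshold in all 19 alternatives. Same-numbered libraries of the groups did not deviate together (correlations -0.14, -0.18 and -0.15). With 3 libraries a group, these values do not settle whether the numbers mark pairs. A replicate block gave 4 genes with an adjusted p under 0.05. It left Slc4a4 under and the other 5 tested genes above an unadjusted 0.05. Other settings for circRNAs of the 8 genes gave no value, as none had reads in 2 or more libraries. Each group had 3 libraries, 1 of which held high salivary gland markers, whose origin was not tested. Car3 and Slc26a6 were under the minimum level for the test, and the other genes rest on these few libraries.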
